A study of Mus musculus with 12 samples.

Results

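The Wnt pathway genes examined here are 48 named components of Wnt signalling, covering ligands, the enzyme that prepares them, receptors, antagonists, membrane regulators, the complex that destroys beta-catenin, and nuclear effectors. The names were chosen with earlier results of these data known, so their shares beside those of all genes are descriptive and no separate support. All probe sets whose single platform gene symbol was one of these names were taken, whatever their values. These probe sets numbered 108, of 45137 probe sets other than controls, and covered 47 of the genes, of 18193 genes with a single symbol. Array A held 74 of them and array B 34. Tcf7 was not analysed here. RNA came from the mouse embryonic stem cell line R1, derived from a blastocyst. The groups were 3 RNAs labelled as differentiated into embryoid bodies (D1 to D3), which are floating clusters of stem cells that have started to form other cell types, and 3 labelled undifferentiated (U1 to U3). The labels name no allele and no added agent, and word the culture of both groups alike, as bacterial Petri dishes in D-MEM with 10% serum for 5 days, so how the cultures differed rests on the group names. For the undifferentiated RNAs alone the labels add a purity of 95%, judged by eye. Each RNA was hybridised once to the Affymetrix array MOE430A (array A) and once to MOE430B (array B). The labels do not say whether the 3 RNAs of a group are from different cultures, so each p-value reflects the spread among these RNAs, possibly technical.

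Wnt proteins are secreted, lipid-carrying signals. With a Wnt bound to a Frizzled receptor and the co-receptor Lrp5 or Lrp6, the complex of Axin, Apc and Gsk3b stops marking beta-catenin for destruction, and beta-catenin then enters the nucleus and acts with factors of the Lef/Tcf family. In cultured mouse embryonic stem cells this signal is known to favour self-renewal, while in the embryo it is needed to form the primitive streak, and secreted antagonists made by the anterior visceral endoderm limit it.

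In the differentiated RNAs the ligand genes Wnt4 and Wnt7a and the antagonist gene Notum fell, while 1 probe set of the antagonist gene Sfrp1 and 1 of Ctnnb1, the gene of beta-catenin, rose. The folds were 2.72 lower for Notum, 5.64 higher for Sfrp1 and 1.67 higher for Ctnnb1. For Wnt4 and Wnt7a the log2 differences were -2.48 and -2.62, whose sizes depend on the floor set for dim signals, at which 1 and 2 of the differentiated arrays lay. All 5 probe sets were on array A, where 59 member probe sets were bright enough to be tested, and 2 rose and 3 fell (limma, Benjamini-Hochberg adjusted p under 0.05 over all probe sets of the array). That is 8.47% of the members tested, where 2.87% of all tested probe sets of array A passed (1.31% rose and 1.56% fell). Wnt4 and Wnt7a averaged 5.51 and 5.09 in the differentiated RNAs, under the filter of 6. They were thus tested only through the undifferentiated RNAs, where they are high. With a minimum mean log2 signal of 7 neither was tested, and 3 of 40 member probe sets passed, where 3.54% of all did. On array B 0 of 32 member probe sets passed limma's test and 4 had an unadjusted p under 0.05. Over the whole of array B the test passed 0.0197%, and 5.24% had an unadjusted p under 0.05. With 1 array left out the count on array A went to 7 without D1, to 3 without D2, D3, U1 or U2, and to 2 without U3.

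When each gene was represented by 1 probe set, chosen by array and brightness and not by the groups, 43 genes were tested, of which 1 rose and 3 fell, against 2.08% of all 16461 tested genes (0.923% rose and 1.16% fell). The median log2 difference (differentiated minus undifferentiated) of the 43 genes was -0.04, and that of all genes was 0.01. The groups' arrays did not overlap for 12 of the 43 genes (4 higher and 8 lower in the differentiated RNAs), which is 27.9%, where the share among all genes was 18.4% (9.16% higher and 9.25% lower). Among the 8 lower, Wnt4, Wnt7a and Fzd9 averaged 5.51, 5.09 and 5.40 in the differentiated RNAs, under the filter of 6. These genes were tested only through the undifferentiated RNAs, so the filter has a part in this count. Wnt4 and Wnt7a are also among the 3 that fell. By probe set the groups did not overlap in 18 of 59 on array A, 11 higher and 7 lower. The share of all there was 21.1% (11% higher and 10.1% lower). On array B they did not overlap in 9 of 32, 7 higher and 2 lower, where the share was 11.3% (5.96% higher and 5.32% lower). The lean to lower values among the 12 genes was thus not seen by probe set. Some probe sets in these counts, in either direction, likewise averaged under 6 in their lower group. The genes with no tested probe set were Wnt3, Wif1, Dkk2 and Rnf43, and the probe sets of Wif1, Dkk2 and Rnf43 were at the signal floor on all 6 arrays. In all, 17 member probe sets were too dim to be tested. A log2 signal here is the deposited signal scaled to a 2% trimmed mean of 500, with 32 as the floor (5.00 on the log2 scale). Levels are comparable between RNAs within a probe set and not between probe sets.

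**Figure D1:**
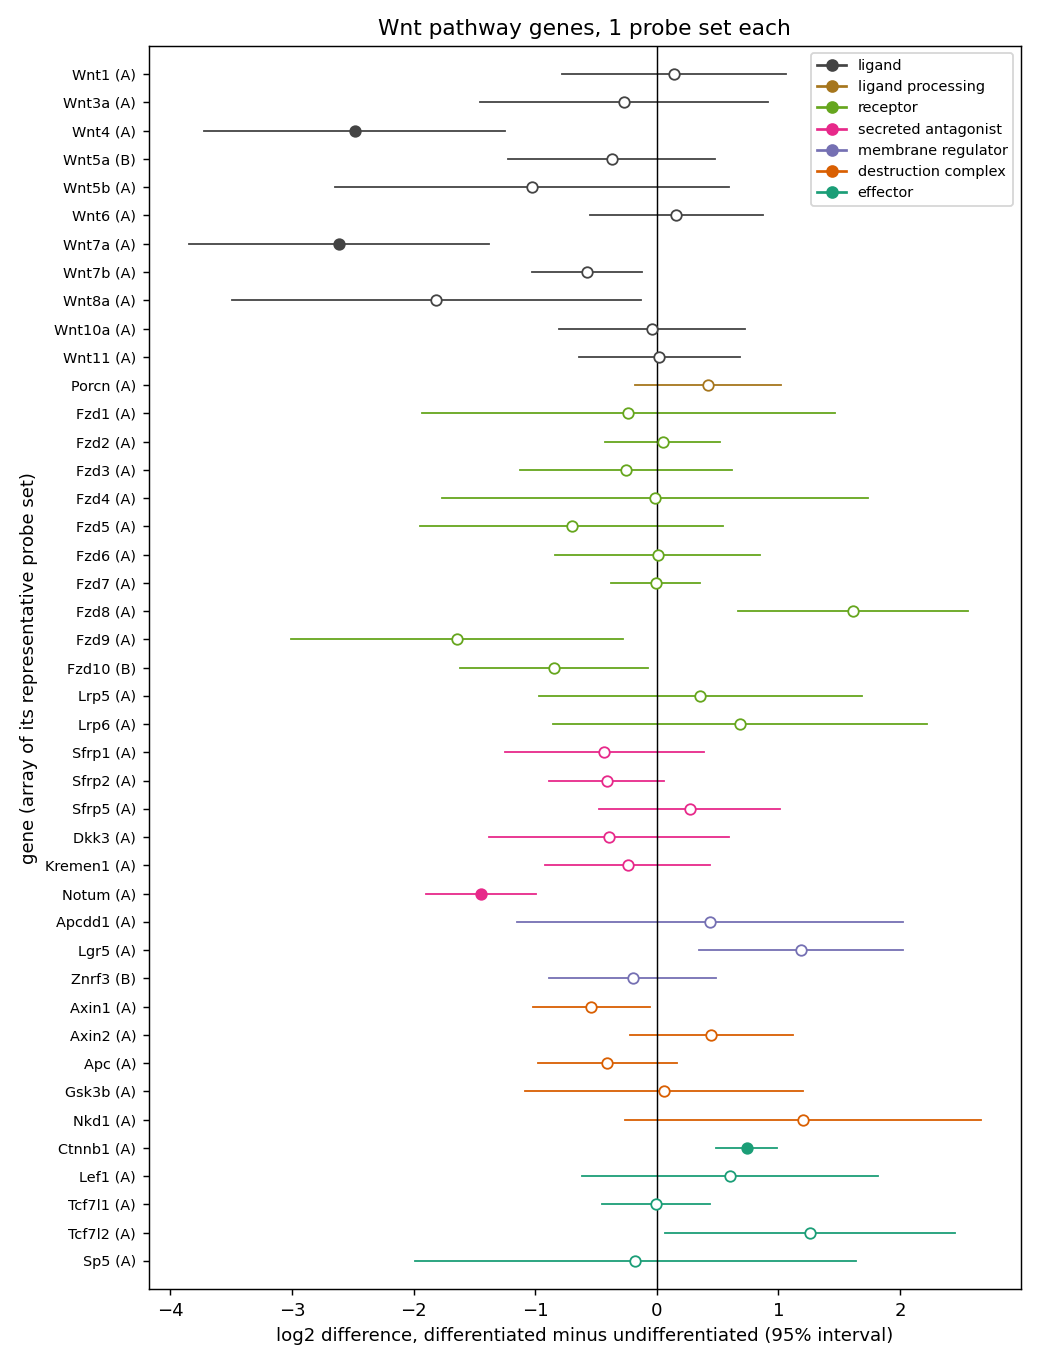
Log2 difference of each of the 43 tested genes (x axis, differentiated minus undifferentiated, with the 95% limma interval as a line), by class of component; filled points passed the adjusted threshold and open points did not. The filled points are Wnt4, Wnt7a and Notum, to the left of 0, and Ctnnb1, to the right of 0 at 0.74.

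Of 11 tested ligand genes 2 fell and 0 rose, and the representative probe sets of 8 lay below 0 and of 3 above it, with a median difference of -0.37. Of all tested genes 50.9% lay above 0. Among the 8, Wnt4, Wnt7a and Wnt5b averaged 5.51, 5.09 and 5.89 in the differentiated RNAs, under the filter of 6. These ligand genes were tested only through the undifferentiated RNAs, so the filter has a part in the count below 0. Wnt4, a ligand of gonad, kidney and mammary development, gave log2 signals of 5.00, 5.85 and 5.69 in D1 to D3 and of 8.42, 7.24 and 8.33 in U1 to U3 (probe set 1450782_at). Every differentiated array lay below every undifferentiated one, and D1 was at the floor. The means were 5.51 ± 0.45 and 8.00 ± 0.65 (SD, n = 3 each), a difference of -2.48 ± 0.56 (SE, limma adjusted p = 0.0420). With any 1 array left out, the difference was between -2.86 and -2.23 and the limma adjusted p between 0.0568 and 0.227, so the call rested on all 6 arrays. With a floor of 100 the difference was -1.36 (limma adjusted p = 0.218), and with no floor it was -2.50 (adjusted p = 0.0516). The Wnt4 probe set of array B read 6.75, 7.20 and 8.22 against 8.22, 8.65 and 8.80, with D3 just below U1, a difference of -1.17 that did not pass (limma adjusted p = 0.841).

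Wnt7a, a ligand known from limb patterning and the uterus, read 5.27, 5.00 and 5.00 in D1 to D3 and 7.68, 7.71 and 7.74 in U1 to U3 (1423367_at). The undifferentiated arrays were nearly alike, and D2 and D3 were at the floor. The difference was -2.62 ± 0.56 (SE, limma adjusted p = 0.0339), and its size depends on where the floor is set. It was -1.06 ± 0.04 with a floor of 100 (SE, limma adjusted p = 0.00752) and -3.26 with no floor (adjusted p = 0.0562). The floor of 100 held every differentiated array, which removed their spread, so the smaller p-value there is set by the floor. It passed without D1 (adjusted p = 0.0276) and missed without D2, D3, U1, U2 or U3, with limma adjusted p between 0.0640 and 0.185. The tested Wnt7a probe set of array B gave -0.26 (adjusted p = 0.912), with overlapping groups, and another there was too dim to be tested.

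**Figure D2:**
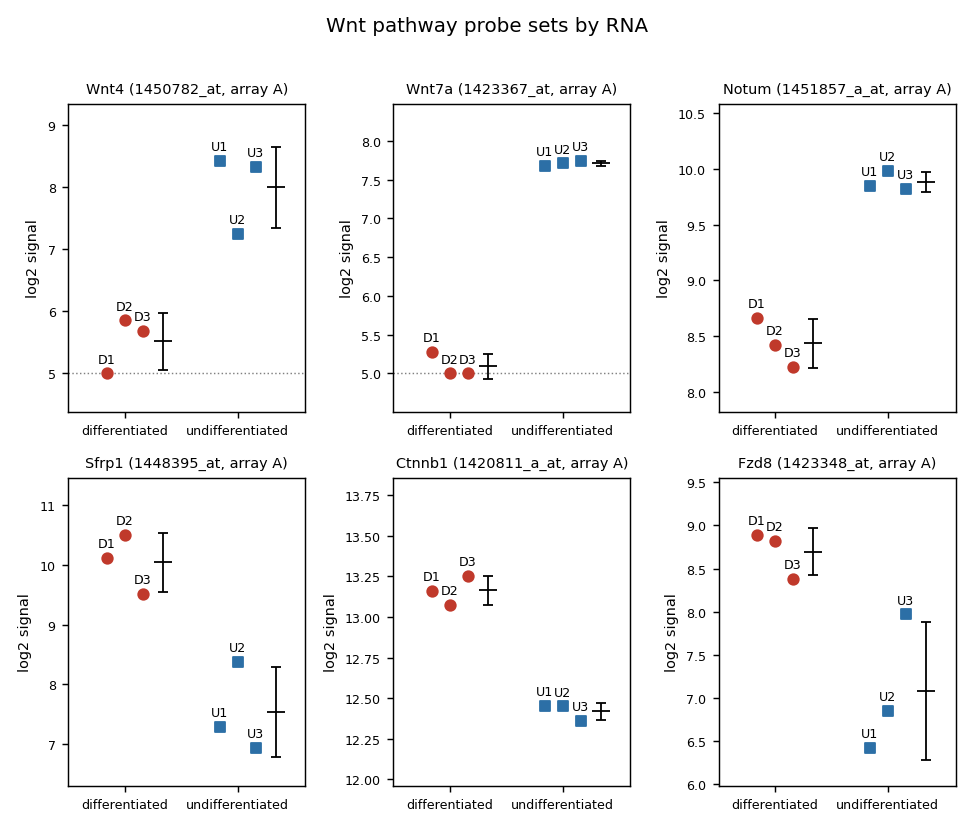
Log2 signal (y axis) of 6 array A probe sets in each RNA, differentiated D1 to D3 as circles and undifferentiated U1 to U3 as squares, with the mean and SD of each group beside the points and the floor of 5 as a dotted line where it is in range. The 2 groups do not overlap in any of the 6 panels, and D2 and D3 of Wnt7a and D1 of Wnt4 lie on the floor.

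The promoter windows of Wnt4 and Wnt7a are shown because these are the ligand genes that fell. Both are RefSeq windows of build GRCm38.p6 from 250 bases before to 50 after the gene's start, written 5′ to 3′ on the strand of the gene. Capitals mark CTTTGA, the core bound by Lef/Tcf factors, and GGGCGG, the GC box bound by Sp factors, each searched on both strands, with overlapping matches counted. No match of one overlapped a match of the other in these windows. Neither window held CTTTGA. Matches to GGGCGG numbered 8 in Wnt4 (chr4:137277385-137277684, plus strand) and 6 in Wnt7a (chr6:91411304-91411603, minus strand).
Wnt4: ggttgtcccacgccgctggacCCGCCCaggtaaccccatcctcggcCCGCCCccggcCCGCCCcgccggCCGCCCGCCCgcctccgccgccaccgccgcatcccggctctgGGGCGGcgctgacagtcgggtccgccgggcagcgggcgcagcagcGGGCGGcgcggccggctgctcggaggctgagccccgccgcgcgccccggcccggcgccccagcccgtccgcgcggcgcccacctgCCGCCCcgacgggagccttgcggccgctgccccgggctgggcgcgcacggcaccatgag
Wnt7a: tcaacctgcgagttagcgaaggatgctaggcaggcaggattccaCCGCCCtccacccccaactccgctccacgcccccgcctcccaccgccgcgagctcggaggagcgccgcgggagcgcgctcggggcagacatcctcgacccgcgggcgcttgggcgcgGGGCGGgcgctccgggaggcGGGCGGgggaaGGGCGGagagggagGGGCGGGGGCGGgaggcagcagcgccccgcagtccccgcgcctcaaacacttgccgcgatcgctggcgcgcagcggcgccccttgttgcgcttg
Of 32851 promoter windows in the table, 16.0% held CTTTGA and 35.7% held GGGCGG. The table had windows for 28 member genes, 38 in all, of which 6 (15.8%) held CTTTGA and 28 (73.7%) held GGGCGG. These are counts of letters and not of bound sites.

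Other ligand genes did not pass. Wnt7b, a ligand known from lung and placenta, read 9.36, 10.07 and 10.02 in D1 to D3 and 10.28, 10.45 and 10.44 in U1 to U3 (1420892_at). The groups did not overlap, at a difference of -0.57 ± 0.20 (SE, limma adjusted p = 0.189), and its other probe set gave -0.32 with overlap. Wnt8a, a ligand of the early primitive streak, read 8.31, 5.00 and 5.48 against 8.44, 7.80 and 7.98. D1 alone lay among the undifferentiated arrays. The difference was -1.81 ± 0.76 (SE, limma adjusted p = 0.276) over all 6 arrays and -2.84 ± 0.49 (SE, adjusted p = 0.0163) without D1.

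Wnt5a, a ligand of beta-catenin-independent signalling and axis elongation, had 1 tested probe set, on array B, with a difference of -0.37 ± 0.38 (SE, limma adjusted p = 0.870). An untested one on array A was above the floor only in the differentiated RNAs. Wnt5b lay at -1.03 (limma adjusted p = 0.570), through a probe set whose kind can also bind other transcripts. Wnt3a, the ligand required for posterior mesoderm, lay at -0.27 ± 0.54 and Wnt1, of the midbrain, at 0.14 ± 0.42 (SE, limma adjusted p = 0.871 and 0.921). Wnt6, Wnt10a and Wnt11 lay between -0.04 and 0.16, with overlapping groups. Porcn, which attaches the lipid that Wnt proteins need for secretion, read 9.33, 8.74 and 8.70 against 8.81, 8.25 and 8.44. Its groups overlapped at a difference of 0.43 ± 0.27 (SE, limma adjusted p = 0.514).

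Of the 12 receptor genes 0 passed limma's test and 3 had an unadjusted p under 0.05, as did 12.6% of all genes. Fzd8 was nearest to the threshold. It read 8.89, 8.82 and 8.38 in D1 to D3 and 6.42, 6.85 and 7.97 in U1 to U3 (1423348_at), so that U3 lay closest to the differentiated arrays without reaching them. The difference was 1.62 ± 0.43 (SE, 95% interval 0.67 to 2.56, limma adjusted p = 0.0758). The Fzd8 probe set of array B read 7.68, 6.48 and 6.04 against 5.81, 5.00 and 5.86, also without overlap, at 1.18 (limma adjusted p = 0.841).

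Fzd9 lay the other way, with 5.93, 5.00 and 5.28 against 7.04, 6.95 and 7.16 (1427529_at). All differentiated arrays were lower, D2 at the floor, at a difference of -1.64 ± 0.62 (SE, limma adjusted p = 0.217), or between -2.03 with no floor and -0.40 with a floor of 100. The Fzd9 mean of 5.40 in the differentiated RNAs was under the filter of 6. Fzd10 had probe sets that disagreed on array B. In 1455689_at it read 10.73, 10.70 and 10.68 against 10.93, 12.35 and 11.35, a difference of -0.84 ± 0.34 (SE), and in 1440182_at it read 9.64, 9.26 and 9.27 against 8.96, 5.00 and 7.41, a difference of 2.27 ± 0.90 (SE). Each separated the groups, in opposite directions, and neither passed (limma adjusted p = 0.841 for both). In both, U2 lay farthest from the differentiated arrays. Against U1 alone, the undifferentiated array run on the same fluidics station as D1 to D3, the differences were -0.23 and 0.43.

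Fzd5, a receptor needed in the yolk sac, also differed between arrays. On array B it read 11.69, 11.56 and 11.51 against 10.81, 10.76 and 10.99, with no overlap and a difference of 0.73 ± 0.21 (SE, limma adjusted p = 0.841), while on array A the groups overlapped at -0.70 ± 0.56 (adjusted p = 0.625). One of 3 probe sets of Fzd2 separated the groups (1418534_at, 8.57, 7.83 and 7.99 against 7.49, 7.16 and 7.13), at 0.87 (limma adjusted p = 0.276), while the other two lay at -0.03 and 0.05. Fzd7, a receptor gene expressed in mouse embryonic stem cells, lay at -0.01 ± 0.17 (SE, 95% interval -0.37 to 0.36) in its brighter probe set. Fzd1, Fzd3, Fzd4 and Fzd6 overlapped between groups in every tested probe set. The co-receptor genes Lrp5 and Lrp6 lay at 0.36 ± 0.60 and 0.69 ± 0.70 (SE, limma adjusted p = 0.844 and 0.716), also with overlap.

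Among the secreted antagonists Notum fell, and Sfrp1 rose in 1 of its 5 tested probe sets. Notum encodes an enzyme that removes the lipid from Wnt proteins outside the cell, and is itself a known target of the pathway. It read 8.66, 8.42 and 8.22 in D1 to D3 and 9.85, 9.98 and 9.82 in U1 to U3 (1451857_a_at). The gap between the groups was over 1 log2 unit and wide against the spread within them, with means of 8.44 ± 0.22 and 9.88 ± 0.09 (SD, n = 3 each). The difference was -1.45 ± 0.21 (SE, limma adjusted p = 0.00420), and it passed with each array left out in turn.

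Sfrp1 encodes a secreted protein that binds Wnt ligands. In probe set 1448395_at it read 10.11, 10.49 and 9.51 in D1 to D3 and 7.29, 8.38 and 6.95 in U1 to U3. The groups were apart at a difference of 2.50 ± 0.38 (SE, limma adjusted p = 0.00597), and it passed with each array left out in turn. In 1460187_at the signals were 8.12, 7.74 and 8.10 against 6.07, 5.79 and 6.81, apart at a difference of 1.76 ± 0.47 (SE, adjusted p = 0.0762). On array B (1428136_at) they were 11.22, 10.97 and 11.32 against 10.54, 8.80 and 10.38, apart at 1.26 ± 0.43 (SE, limma adjusted p = 0.841), or at 0.63 against U1 alone. In 1416594_at D1, at 6.27, lay below U2, at 6.37, and the difference was 2.08 ± 0.70 (SE, limma adjusted p = 0.169) with D1 and 2.89 ± 0.50 (adjusted p = 0.0159) without it. The brightest array A probe set, 1438620_x_at, is of the kind whose probes can also match other transcripts, and it read 8.21, 9.44 and 9.52 against 9.98, 9.60 and 8.88. Its groups overlapped at -0.43 ± 0.37 (SE, limma adjusted p = 0.656), and since it represented the gene, Sfrp1 is not among the 4 genes counted as changed.

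**Figure D3:**
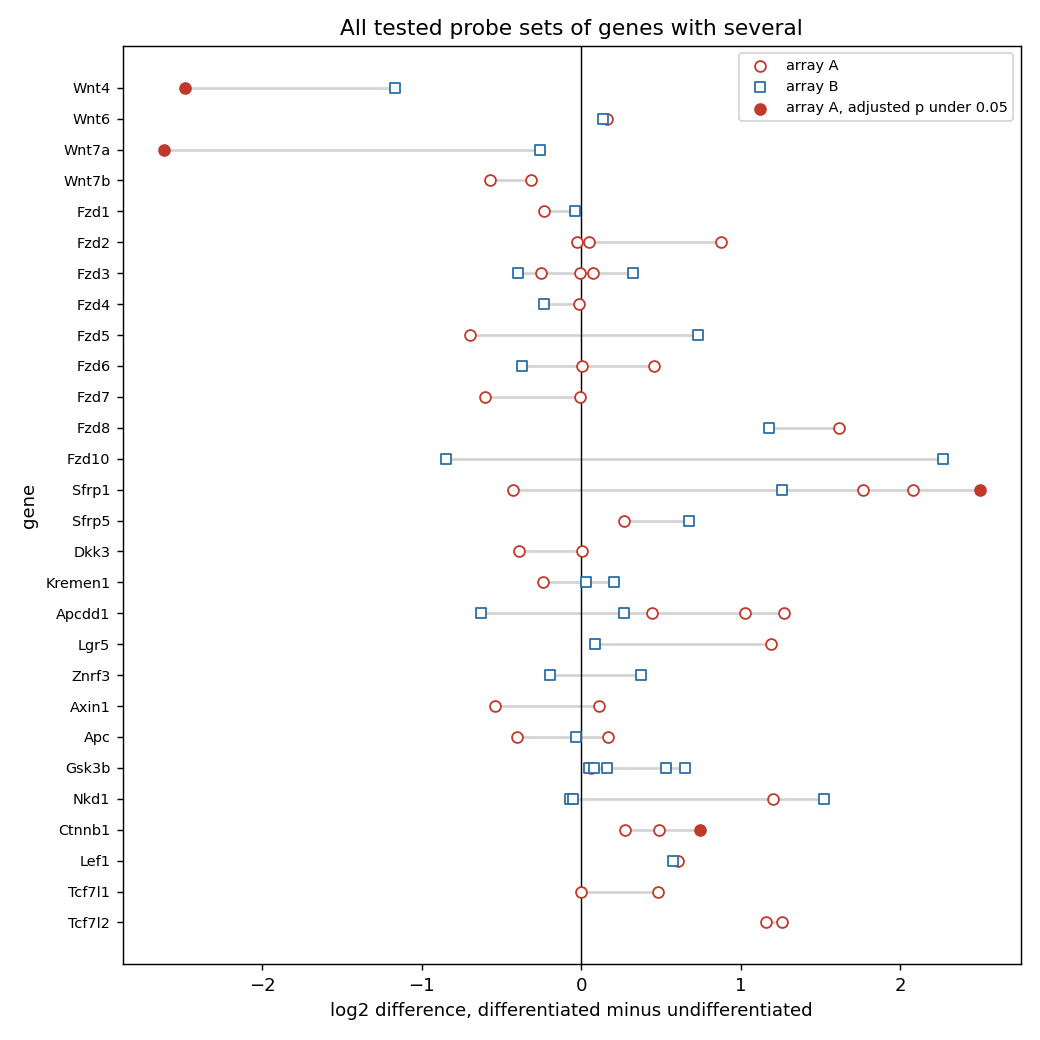
Log2 difference (x axis, differentiated minus undifferentiated) of every tested probe set of the 28 genes with at least 2, array A as circles and array B as squares, with filled symbols for those that passed the adjusted threshold. The points of 14 genes lie on 1 side of 0 and those of the other 14 on both sides; Sfrp1 runs from -0.43 to 2.50 and Fzd10 from -0.84 to 2.27.

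Sfrp2, from the same family, read 8.90, 8.61 and 8.98 against 9.37, 9.25 and 9.10. All differentiated arrays were lower by a narrow margin, at -0.41 ± 0.21 (SE, limma adjusted p = 0.398). Sfrp5, Dkk3 and Kremen1, the last of which encodes a receptor for Dickkopf proteins, overlapped between groups in each tested probe set, with differences between -0.39 and 0.68.

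Of the 3 tested membrane regulators 0 passed limma's test and 1, Lgr5, had an unadjusted p under 0.05, as did 12.6% of all genes. Lgr5, a receptor for R-spondins and a marker of intestinal stem cells, read 9.32, 8.30 and 8.46 against 7.67, 6.99 and 7.86 on array A (1450988_at). The groups did not overlap at 1.19 ± 0.38 (SE, 95% interval 0.35 to 2.02, limma adjusted p = 0.141), while its probe set on array B lay at 0.08 ± 0.57 with overlap. Znrf3, an enzyme that removes Frizzled receptors from the cell surface, read 9.37, 9.77 and 9.35 against 9.63, 9.60 and 9.85 (1435608_at, array B). The groups overlapped at -0.20 ± 0.31 (SE, limma adjusted p = 0.916). Apcdd1, a membrane inhibitor of the pathway, had 5 tested probe sets with differences between -0.63 and 1.27, and 2 of them separated the groups, both higher in the differentiated RNAs.

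Of the 5 destruction complex and feedback genes 0 passed limma's test and 1 had an unadjusted p under 0.05, as did 12.6% of all genes. Axin1, a scaffold of the complex, read 8.66, 8.87 and 8.56 against 9.19, 9.43 and 9.09 in 1426966_at. There the differentiated arrays were all lower, at -0.54 ± 0.22 (SE, limma adjusted p = 0.254), and in 1426967_at the groups overlapped at 0.11 ± 0.41. Axin2, a scaffold that is widely used as a readout of beta-catenin activity, read 8.79, 8.82 and 8.37 against 8.54, 8.37 and 7.72 in its tested probe set. The groups overlapped, with D3 below U1 and U2, and the difference was 0.45 ± 0.30 (SE, 95% interval -0.22 to 1.12, limma adjusted p = 0.543). Nkd1, a feedback inhibitor that binds Dishevelled, lay at 1.20 ± 0.66 (SE, limma adjusted p = 0.432) on array A and at -0.07, -0.05 and 1.52 on array B. The last of these separated the groups and came with U2 at 6.34 beside 10.44 and 10.47 in U1 and U3, and against U1 alone it was 0.16. Apc, the tumour suppressor scaffold, lay between -0.41 and 0.17 in 3 probe sets, and Gsk3b, the kinase that marks beta-catenin, between 0.05 and 0.65 in 6, all with overlapping groups.

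Of the 5 effector genes 1 rose, and 3 lay above 0 and 2 below it, with a median of 0.60. Of all tested genes 0.923% rose and 50.9% lay above 0, with a median of 0.01. So few genes do not describe the class. Ctnnb1 read 13.16, 13.07 and 13.25 in D1 to D3 and 12.45, 12.45 and 12.36 in U1 to U3 (1420811_a_at). The spread within each group was small beside the gap, with means of 13.16 ± 0.09 and 12.42 ± 0.05 (SD, n = 3 each). The difference was 0.74 ± 0.11 (SE, limma adjusted p = 0.00597), and without U3 it was 0.71 with an adjusted p of 0.05005, just past the threshold. In 1450008_a_at the signals were 11.39, 11.80 and 11.90 against 11.15, 11.35 and 11.13, with no overlap and D1 closest to the undifferentiated arrays. The difference there was 0.49 ± 0.16 (SE, limma adjusted p = 0.144), or 0.64 (adjusted p = 0.0288) without D1. In 1430533_a_at D1 lay among the undifferentiated arrays, at a difference of 0.27 ± 0.19 (SE, limma adjusted p = 0.565). These 3 probe sets lay on the same side of 0.

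Tcf7l2, a nuclear partner of beta-catenin, read 7.50, 7.35 and 7.56 against 6.61, 5.36 and 6.68 (1429428_at). The groups were apart at 1.26 ± 0.54 (SE, limma adjusted p = 0.283), and a second tested probe set, also apart, gave 1.16 ± 0.61. Lef1, another partner, lay at 0.60 ± 0.55 with overlap on array A and at 0.58 ± 0.30 without overlap on array B (SE, limma adjusted p = 0.677 and 0.841). Tcf7l1, known in mouse embryonic stem cells as a repressor of pluripotency genes, lay at -0.01 ± 0.20 in the brighter of its probe sets and at 0.48 ± 0.19 in the other, where the groups did not overlap (SE, limma adjusted p = 0.994 and 0.238). Sp5, a transcription factor gene that is a known target of beta-catenin, read 6.43, 6.14 and 7.19 against 8.54, 6.75 and 5.00. Its undifferentiated arrays ran from the floor to above every differentiated one, and its difference of -0.18 ± 0.82 (SE, 95% interval -1.99 to 1.64, limma adjusted p = 0.950) leaves a wide range.

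The promoter windows of Ctnnb1, the effector gene that rose, and of Sp5, a target gene whose window holds the Lef/Tcf core, are shown with the same capitals. Ctnnb1 (chr9:120933150-120933449, plus strand, the first of 2 RefSeq windows of the gene) held 3 matches to GGGCGG and 0 to CTTTGA. Sp5 (chr2:70474673-70474972, plus strand) held 2 matches to CTTTGA and 0 to GGGCGG.
Ctnnb1: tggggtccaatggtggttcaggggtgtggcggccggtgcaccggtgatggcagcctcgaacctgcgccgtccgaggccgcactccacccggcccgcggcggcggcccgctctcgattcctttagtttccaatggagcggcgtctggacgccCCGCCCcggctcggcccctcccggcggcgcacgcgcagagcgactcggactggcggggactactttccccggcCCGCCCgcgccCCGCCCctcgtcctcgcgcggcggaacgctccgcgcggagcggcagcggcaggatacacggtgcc
Sp5: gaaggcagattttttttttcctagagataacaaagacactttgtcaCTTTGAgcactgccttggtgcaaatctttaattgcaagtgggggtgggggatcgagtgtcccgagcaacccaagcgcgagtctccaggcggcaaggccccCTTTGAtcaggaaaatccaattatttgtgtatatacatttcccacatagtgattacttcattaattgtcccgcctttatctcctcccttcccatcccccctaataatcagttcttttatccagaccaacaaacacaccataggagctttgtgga
Both windows are of build GRCm38.p6 and come from RefSeq.

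A further 79 genes of the pathway, outside the 48, were listed by class, also with earlier results of these data known. Of the list, 75 were measured and 66 tested. Of the 66 tested 2 rose and 2 fell (limma with Benjamini-Hochberg adjustment over the array), which is 6.06%, against the 2.08% of all genes. The groups did not overlap for 17 of the 66 genes (13 higher and 4 lower), which is 25.8%, where the share among all genes was 18.4%. Dkk1, an antagonist that binds the Lrp co-receptors and is made by the anterior visceral endoderm, read 9.17, 8.23 and 8.87 in D1 to D3 and 7.26, 6.94 and 5.93 in U1 to U3. The groups were apart, at 2.05 ± 0.44 (SE, limma adjusted p = 0.0360). The call was lost without D1, D2, D3, U2 or U3 (adjusted p between 0.0519 and 0.128). The Dkk1 probe set of array B also separated the groups, at 1.19 (limma adjusted p = 0.841).

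Hbp1, a transcriptional repressor known to restrain Lef/Tcf activity, read 10.58, 10.54 and 10.82 against 9.85, 9.45 and 9.48 (1460367_at). All differentiated arrays were higher, at 1.06 ± 0.17 (SE, limma adjusted p = 0.00838), and the call was lost without U2 (adjusted p = 0.0525) or without U3 (adjusted p = 0.0535). Of its other probe sets 1 was lower at -0.17, with overlap. Ptk7, a receptor of planar cell polarity, read 8.45, 8.13 and 7.69 against 9.87, 9.46 and 9.60. It fell, with groups well apart, by 1.55 on the log2 scale (SE 0.26, limma adjusted p = 0.00934, or 0.0578 without U3). Ccnd1, which encodes cyclin D1 and is a known target of the pathway in other cells, read 9.78, 10.23 and 9.57 against 11.10, 10.73 and 10.96 (1448698_at). It fell by 1.07 (SE 0.19, limma adjusted p = 0.0137), and by 0.96 in a second probe set (adjusted p = 0.00761). Another, at -1.69, did not pass (limma adjusted p = 0.179). The first of these calls was lost without D3 (adjusted p = 0.0553) or without U3 (adjusted p = 0.0774).

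Csnk1e, a kinase that acts on Dishevelled, read 10.31, 9.71 and 9.80 against 8.98, 8.83 and 8.74 in 1417175_at, which rose. The difference was 1.09 ± 0.21 (SE, limma adjusted p = 0.0214), and the call was lost without D3, U2 or U3 (adjusted p between 0.0557 and 0.103). The brighter probe set, which represents the gene, gave 0.67 ± 0.17 without overlap (SE, limma adjusted p = 0.0601), so the gene is not in the count. Frzb, a secreted antagonist, Msx2, a target gene, and Cd44, a target gene, were separated between groups at 2.31, 2.29 and -1.32 and did not pass (limma adjusted p = 0.0693, 0.0508 and 0.0736), and are named after their values were seen. On array B, Cd44 read 8.44, 8.71 and 8.56 against 10.05, 10.26 and 10.44, and Msx2 in its array B probe set lay at -0.20 with overlap.

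**Figure D4:**
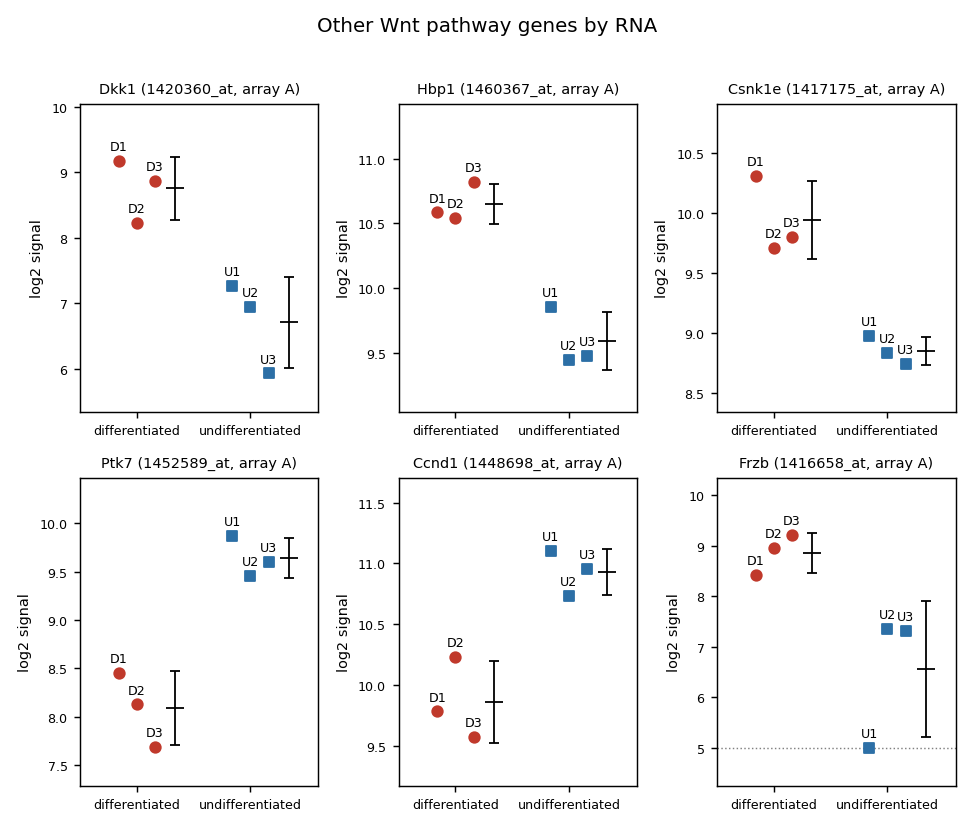
Log2 signal (y axis) of 6 array A probe sets of other pathway genes in each RNA, with symbols, group mean and SD as in the plot of member probe sets, and the floor of 5 dotted for Frzb. Dkk1, Hbp1 and Csnk1e are higher and Ptk7 and Ccnd1 lower in all 3 differentiated RNAs; for Frzb, which did not pass, U1 is at the floor and U2 and U3 at 7.35 and 7.31.

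The window of Dkk1, the antagonist gene of the wider list that rose, is shown because it also holds the Lef/Tcf core. It lies at chr19:30549447-30549746 on the minus strand (RefSeq, GRCm38.p6), and held 2 matches to CTTTGA, 1 on each strand, and 0 to GGGCGG.
Dkk1: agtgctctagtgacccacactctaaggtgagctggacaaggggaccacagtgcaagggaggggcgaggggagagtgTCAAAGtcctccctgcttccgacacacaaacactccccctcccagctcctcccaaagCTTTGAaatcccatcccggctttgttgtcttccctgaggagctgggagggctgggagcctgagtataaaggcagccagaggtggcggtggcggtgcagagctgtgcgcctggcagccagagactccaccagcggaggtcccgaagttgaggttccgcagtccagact
Capitals mark the matches, as above.

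The summed signals of all marker lists but that of neural ectoderm were apart between the groups. Of 9 pluripotent cell markers all lay below 0 and 2 fell, Klf4 and Tdgf1. The summed scaled signal of the list was 20831 to 44834 in the differentiated and 56138 to 65310.0 in the undifferentiated RNAs. Dppa5a, the brightest of the list with means of 14.07 and 15.12, gave the largest part of these sums. Sox2 lay at -0.03, Pou5f1 at -0.27 and Nanog at -0.56, and none of these passed. Of 8 tested markers of extraembryonic endoderm 6 rose, with sums of 5684 to 6146 against 1506 to 2040 over the 9 listed, and Afp among them was at the floor in all undifferentiated arrays and in D2. Of 8 tested fibroblast markers 3 fell (S100a4, Bgn and Col1a2), with sums of 1720 to 3169 against 5827 to 6482 over the 10 listed. In all 6 of these 8 lay below 0 and 2 above it, Lum at 0.84 and Dcn at 0.74, neither of which passed. Of 7 listed primitive streak markers 6 were measured, all but T, and 1 rose, Lhx1. Their sums were 2389 to 3006 against 1152 to 1359, and Eomes among them is also in the trophoblast list. Of 3 tested neural ectoderm markers 0 passed limma's test and 0 had an unadjusted p under 0.05, with sums of 1280 to 1338 against 1192 to 1685. Of 4 tested trophoblast markers 0 passed limma's test and 2 had an unadjusted p under 0.05, Eomes and Krt8, both with groups apart. The trophoblast sums were 8061 to 9325 against 5872 to 7015 over the 6 listed, and Krt8 gave the largest part. Of the 4 tested 3 lay above 0 and 1, Tfap2c, below it. The part of these cells in the differences of the Wnt genes was not tested. In RNA from whole cultures, fewer cells of a type and less RNA per cell cannot be told apart.

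Median deposited signals ranged from 674.6 to 820.7 for array A and from 882.1 to 1047.6 for array B. D1 correlated least with the other arrays on array A (median r = 0.88 over probe sets) and U2 on array B (median r = 0.70). Among the actin control probe sets, the 3′ one exceeded the 5′ one, a measure of RNA integrity, by a log2 difference of 0.70 in D1 and 0.13 to 0.31 in the other RNAs on array A, and 0.68 in D1 and 0.01 to 0.55 in the others on array B. Wnt8a, Sfrp1 in 1416594_at and Ctnnb1 in 1450008_a_at passed without D1 and not with it. The part of RNA quality in these differences was not tested. On array A all differentiated RNAs were run on 1 fluidics station and all undifferentiated on another, and the effects of station and group cannot be told apart. On array B station 1 held D1 to D3 and U1, and station 2 held U2 and U3. On array A the lot put U2 and U3 apart from the other RNAs in the same way. Within the lot that held D1 to D3 and U1, the differences were -2.91 for Wnt4, -2.58 for Wnt7a, -1.41 for Notum, 2.74 for Sfrp1 (1448395_at) and 0.71 for Ctnnb1. Since the groups of these 5 probe sets do not overlap, the differences against U1 alone had to keep their direction. That direction is therefore no separate support. With lot as a block 0 member probe sets passed limma's test, and the adjusted p of these 5 were between 0.0819 and 0.304. That fit compares D1 to D3 with U1 alone and borrows the spread of the other arrays.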

How the data were processed

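Total RNA was measured as biotinylated cRNA on 12 arrays, 6 RNAs on each of 2 array types. The values deposited by the authors are linear signal intensities of each probe set on each array, which the submitters' processing notes credit to MAS5. The MAS5 version is not given in the sources used here. Settings of each array, also deposited by the authors, hold other information, from which array lot and fluidics station were taken. Every deposited array had a 2% trimmed mean between 1500.1 and 1500.6, so a change in total RNA per cell cannot be seen.

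From these values, each array was scaled to a trimmed mean of 500, a floor of 32 was applied and the values were put on the log2 scale. The test left out control probe sets (64 per array type) and those whose log2 signal averaged under 6. Differentiated minus undifferentiated differences were fitted in R 4.3.3 with limma 3.58.1 (lmFit, then two-sided eBayes with trend), separately for array A and array B, with Benjamini-Hochberg adjustment over all tested probe sets of the array and a threshold of 0.05. Folds are log2 differences on the linear scale, and the floor understates those of dim genes. A gene's representative was its probe set on array A before array B, tested before untested, then the brightest. The fit was tested on simulated data, where it missed nearly all changes added on array B and a large part of those on array A. A probe set that did not pass may therefore still differ, above all on array B. No detection calls were used, and the number of arrays limits the precision. The same-numbered RNAs were checked for pairing. Their deviations from the group mean correlated by 0.01 to 0.18, and those of differently numbered RNAs by -0.15 to 0.09. This did not settle whether the numbers pair the RNAs, and they were not used as pairs in the main fit.

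Values in every sample are given for members called in any probe set, for up to 3 members per class with the largest difference among those whose groups do not overlap, and for the brightest tested member per class; of the other pathway genes, for each called gene. Wnt5a, Wnt8a, Fzd2, Fzd5, Axin2, Sp5, Nkd1, Csnk1e, Frzb, Msx2 and Cd44 fall outside that rule: their values were known when they were chosen. The members and lists were chosen with earlier results of these data known. Promoter sequences came from RefSeq (GRCm38.p6). Alternatives were median centring, quantile normalisation, other floors and filters, no intensity trend, a robust fit, joint adjustment of both array types, lot or station as a block, the replicate number as a block, each array left out, and other probe sets.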

Additional observations from a re-analysis of the deposited data

Results flagged for a closer look

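Wnt5a, a ligand of beta-catenin-independent signalling, gave a signal in data outside the tested set. Probe set 1436791_at on array A was too dim for the test, with log2 signals of 6.31, 6.22 and 5.91 in D1 to D3 and 5.00, the floor, in U1 to U3. The difference of 1.15 depends on the floor, and was 0 with a floor of 100. With no filter on dim probe sets limma gave it an adjusted p of 0.0362. That p-value also depends on the floor, which left the undifferentiated arrays no spread. The probe set was picked because its groups do not overlap, so the p-value is no separate support. The other array A probe set of Wnt5a was mostly at the floor, and the tested one on array B lay at -0.37.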

How the results depend on the processing

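The differences of the members and other pathway genes taken up by the naming rule kept their direction under each alternative of scaling, floor, filter, model and left-out array, and reversed only in some other probe sets of the same gene. Most of these probe sets were named because they passed or their groups do not overlap. Where groups do not overlap, leaving out an array had to keep the direction. Filter, trend, robust fit and joint adjustment do not change the difference at all. The kept direction is therefore no separate support. On array A 5 member probe sets passed, and 3 passed with no floor, with a minimum mean log2 signal of 7 or with adjustment over both array types, 1 with no intensity trend and 0 with lot or station as a block. Leaving out 1 array gave 2 to 7. Array B gave 0 under every alternative. Of the member genes 4 passed, and 2 did with no floor, a minimum of 7 or joint adjustment, 1 with no trend, 0 with the lot block, and 1 to 4 with 1 array left out. Of the other pathway genes 4 passed, and 0 did with a floor of 100, with no filter on dim probe sets or with no trend, 1 with the lot block, and 0 to 4 with 1 array left out. With the replicate number as a replicate block 5 member probe sets, 4 member genes and 7 other genes passed. Over the whole of array A that fit passed 724 probe sets (4.02%), beside 518 in the main fit. On array B every RNA correlated best with its own number (r = 0.18, 0.10 and 0.12), while on array A D2, D3 and U2 did not. Whether the numbers pair the RNAs was not settled. Probe sets called over the whole of array A numbered 518 and went to 307 with median centring, 199 with a floor of 100, 194 with no filter, 97 with no trend, 319 with joint adjustment, 106 with the lot block and 181 to 497 with 1 array left out. Wnt4 passed under 3 of 16 alternatives, Wnt7a under 8 of 16, Notum under 15 of 17, Ctnnb1 under 14 of 17 and Sfrp1 (1448395_at) under 13 of 17. The 8 of Wnt7a include the floor of 100, which removed the spread of its differentiated arrays. Other probe sets reversed the difference of Fzd10 (2.27), of Sfrp1 1438620_x_at (2.08, 2.50, 1.76 and 1.26), of Sfrp1 1448395_at (-0.43), of Znrf3 (0.37), of Axin1 (0.11) and of Hbp1 (-0.17). The cause of these changes was not tested. Signal over background could not be judged without detection calls, and differences that touch the floor are set partly by it.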
